A study of Mus musculus with 18 samples.

Results

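The genes described here are 9 that build or organise the tight junction in mouse mammary tissue: the claudins Cldn1, Cldn3, Cldn4, Cldn7 and Cldn8, the occludin gene Ocln, the junctional adhesion gene F11r, the scaffold gene Tjp1 and the polarity gene Crb3. They were chosen by gene symbol, among 28919 genes or unnamed transcripts on a 2-colour oligonucleotide array, and are measured by 12 of its 41174 probes. RNA came from tissue or tumours of the mammary gland, frozen whole, of female FVB/N mice in 3 groups. The tumour groups were 5 single tumours with an ErbB2 knock-in (KI) and 2 pools of NIC tumours, each made from 5 tumours in equal amounts. The third group was 2 normal mammary glands. The labels do not spell out NIC, give no ages and name no promoter, and a normal gland carries the unexplained letters PI. Each RNA was hybridised with both dye assignments against a purchased mouse reference RNA, which made 18 arrays. A level below is the log2 ratio of sample over that reference, averaged over the dye pair, so a level of 0 means as much transcript as in the reference RNA. Levels of different probes share no scale and are not set against each other.

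Tight junctions seal the space between neighbouring epithelial cells near their apical surface. Claudins are membrane proteins whose extracellular loops form the paracellular seal or pore, and different claudins set how tight and how selective it is. Occludin belongs to another family of membrane proteins of the junction. ZO-1, the product of Tjp1, lies beneath the membrane and ties claudins, occludin and JAM-A, the product of F11r, to the actin cytoskeleton. Crb3 is part of the Crumbs complex that marks the apical membrane and helps place the junction. In the mammary gland these junctions separate milk from tissue fluid, and the adipocytes that fill most of the resting gland do not form them.

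Most of the 9 genes were higher in tumours than in normal gland. Judged by the brightest probe of each gene on the KI arrays, 8 of the 9 were called higher in KI tumours, where 17.7% of all genes were called higher and 24.8% lower. The 8 include Tjp1, whose other probe was called lower and whose call did not hold without any 1 KI tumour, and Ocln, whose other probe was not called. By all 12 probes, 9 were higher and 1 was lower at an adjusted p under 0.05, on an array where 42.2% of all probes differed (limma, Benjamini-Hochberg over all probes). Higher calls made up 20.1% and lower calls 22.2% of all probes. In NIC pools 5 of the 9 genes rose against normal gland, with 8.47% of all genes called higher and 9.52% lower. By probe 6 were higher and 1 was lower, against a background of 18.4% of probes called, 9.82% higher and 8.62% lower. The median log2 difference over the 12 probes was 2.11 in KI tumours and 2.19 in NIC pools, where the median over all probes was 0.01 and −0.02. Every KI tumour lay above both glands for 8 of the 12 probes and below them for 2, which held for 27.2% and 27.5% of all probes. Both NIC pools lay above both glands for 8 and below for 1, against 33.8% and 37.7% of all probes. None of the 12 was called between KI tumours and NIC pools, a comparison that called 6.99% of all probes.

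Markers of other cell types differed between the groups as well. Of 15 adipocyte markers, 12 were lower than in normal gland in KI tumours and 12 in NIC pools. Their median level was −0.05 to 0.43 in KI tumours and 0.04 to 0.36 in NIC pools, against 3.60 to 3.88 in normal glands. Of 22 luminal epithelial markers, 18 rose in KI tumours and 16 in NIC pools, and none was called lower in either. The median luminal level was 2.37 to 2.86 in KI tumours and 3.07 to 3.10 in NIC pools, against 0.75 to 0.80 in normal glands. The part of these changes in the results below was not tested. In such bulk samples, fewer cells of a type and less RNA per cell cannot be told apart. The KI values come from a value table of their own, so any effect of that table and of the KI group cannot be told apart. Nothing in the labels says how the 2 normal glands or the tumours of a group relate, so the p-values speak only of the spread seen among these 9 samples.

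**Figure D1:**
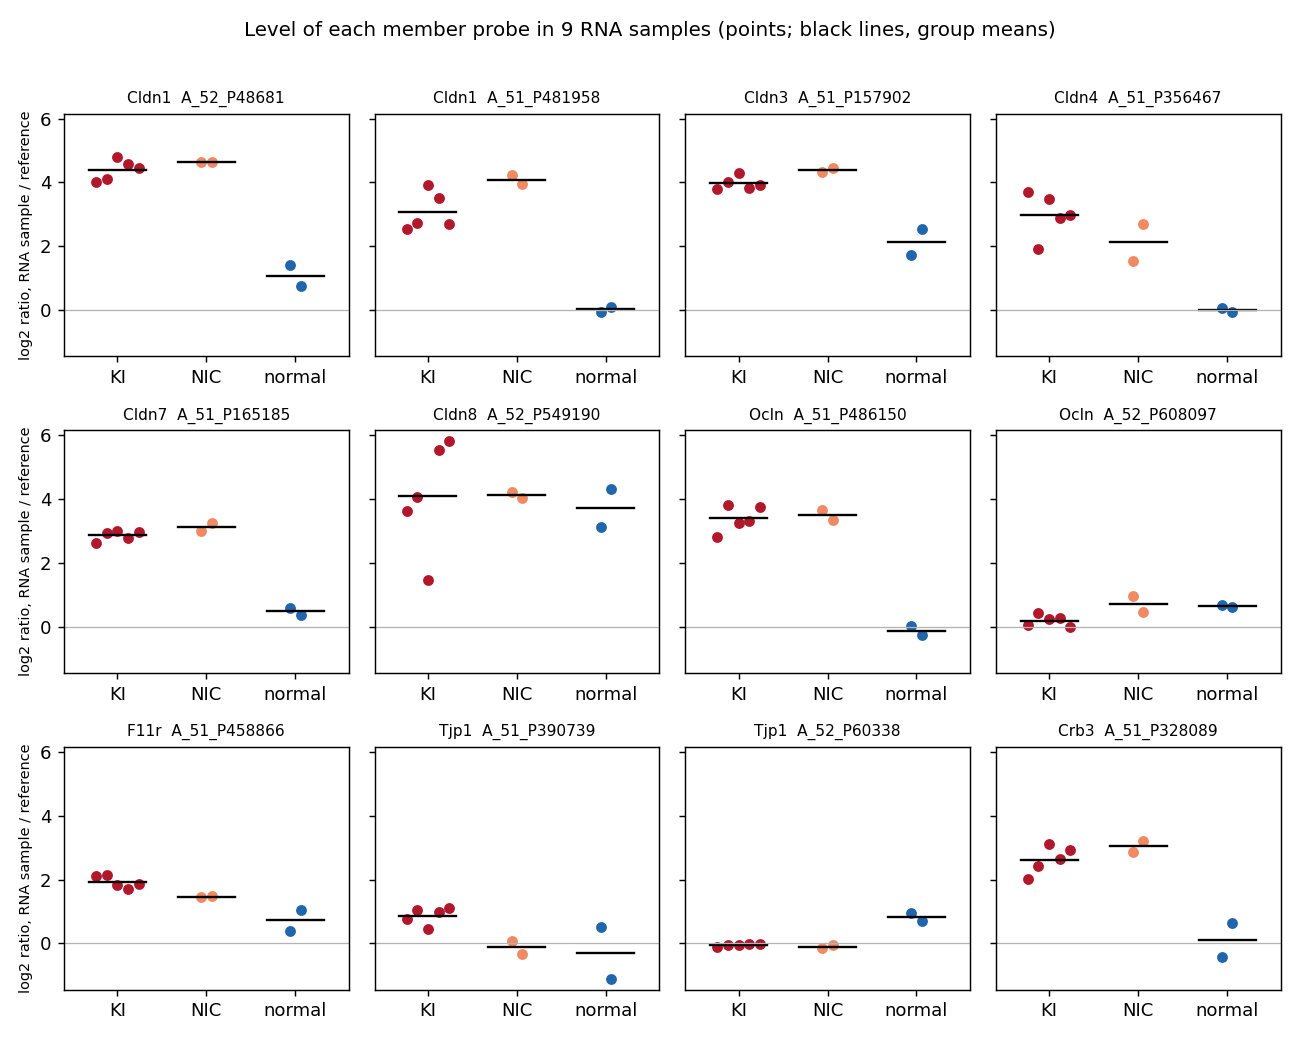
Level of each of the 12 probes, as the log2 ratio of RNA sample over reference RNA (vertical axis, the same in all panels), in 5 KI tumours, 2 NIC pools and 2 normal glands. Points are RNA samples and black lines are group means. For both Cldn1 probes, Cldn3, Cldn4, Cldn7, F11r, Crb3 and Ocln probe A_51_P486150 all tumour points lie above both normal points.

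The sequence just before a gene's start was read for 8 of the 9 genes from RefSeq promoter windows on GRCm38.p6. Cldn8 has no window in the table used here. The E-box CAGGTG, the element that Snail and Zeb repressors bind in promoters of epithelial genes, was searched on both strands in the 250 bases before each start. It was found for 5 of the 8 genes, Cldn4, Cldn7, Ocln, F11r and Crb3, and for 19.4% of 27025 genes with a window. For Cldn7 and Ocln, which have 2 annotated starts each, it lay before 1 of them only. The TCF/LEF motif CTTTGAT was in none of the 8 and in 3.72% of genes. The grainyhead core ACCGGT was in none of the 8 and in 2.13% of genes. A match is a run of letters and not a binding site, and no match speaks only of this window. Shown are Crb3 (chr17:57061951-57062200, plus strand, the upstream of 2 annotated starts) and Cldn4 (chr5:134946935-134947184, minus strand), as 2 members with the element close to the start, and Cldn1 (chr16:26371840-26372089, minus strand) as a strongly changed member without it. Each run ends at the base before the start, and capitals mark the E-box on either strand. In Crb3 its first base lies at −118, −63 and −7 from the start, and in Cldn4 at −14.
Crb3: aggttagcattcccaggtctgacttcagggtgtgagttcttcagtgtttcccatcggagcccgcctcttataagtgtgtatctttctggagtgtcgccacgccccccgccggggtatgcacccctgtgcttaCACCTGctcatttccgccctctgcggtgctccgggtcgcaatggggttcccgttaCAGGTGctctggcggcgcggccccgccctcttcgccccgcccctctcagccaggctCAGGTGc
Cldn4: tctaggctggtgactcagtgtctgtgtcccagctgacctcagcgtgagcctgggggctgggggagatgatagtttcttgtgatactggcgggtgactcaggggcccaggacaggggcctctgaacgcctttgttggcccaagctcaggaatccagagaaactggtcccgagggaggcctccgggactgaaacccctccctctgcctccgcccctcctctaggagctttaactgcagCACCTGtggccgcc
Cldn1: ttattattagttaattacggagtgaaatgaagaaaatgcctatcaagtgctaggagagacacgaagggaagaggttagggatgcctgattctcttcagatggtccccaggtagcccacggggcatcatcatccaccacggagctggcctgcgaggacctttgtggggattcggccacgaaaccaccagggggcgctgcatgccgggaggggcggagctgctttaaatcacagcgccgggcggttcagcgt

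Repressors of epithelial genes, the Snail and Zeb factors among them, were themselves measured. Of the list Snai1, Snai2, Zeb1, Zeb2, Twist1 and Twist2, 4 were lower in KI tumours than in normal gland and 5 in NIC pools. Of all genes, 24.8% were called lower in KI tumours and 9.52% in NIC pools. Snai1 was called in neither and differed by 1.23 ± 0.92 in KI tumours and −0.92 ± 0.44 in NIC pools. The median level of the 6 was −2.90 to −0.93 in KI tumours and −3.20 to −2.95 in NIC pools, against −0.10 and 0.00 in normal glands. Their part in the members' differences was not tested.

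Cldn1, a claudin needed for a tight epidermal barrier, rose strongly in both kinds of tumour. By its brightest probe, A_52_P48681, its level was 4.01, 4.09, 4.79, 4.57 and 4.44 in KI tumours 1 to 5 and 4.65 and 4.63 in the NIC pools, against 1.41 and 0.73 in the normal glands. Every tumour sample stood well above both glands, and the NIC pools lay among the KI tumours. The log2 difference from normal gland was 3.31 ± 0.25 (SE, n = 5 and 2, limma adjusted p = 0.000186) in KI tumours, 9.92-fold. In NIC pools it was 3.57 ± 0.27 (SE, n = 2 and 2, limma adjusted p = 0.013), 11.9-fold.

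The other Cldn1 probe, A_51_P481958, read 2.53, 2.71, 3.90, 3.51 and 2.69 in KI tumours and 4.24 and 3.94 in NIC pools, against −0.08 and 0.10 in normal glands. It rose by 3.06 ± 0.38 in KI tumours (limma adjusted p = 0.000998) and by 4.08 ± 0.16 in NIC pools (adjusted p = 0.0094). Here both NIC pools stood above all 5 KI tumours, which was not so for the brightest probe. The gene lies on chr16:26356645-26371839.

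Cldn3 and Cldn4, close neighbours on chromosome 5, are sealing claudins of simple epithelia and the receptors of a clostridial enterotoxin. Cldn3 (chr5:134986214-134987476) read 3.78, 4.03, 4.29, 3.82 and 3.93 in KI tumours and 4.34 and 4.44 in NIC pools, against 1.72 and 2.53 in normal glands. The tumours lay within a narrow band above the 2 glands, which themselves differed by 0.82. Cldn3 rose by 1.84 ± 0.22 in KI tumours (limma adjusted p = 0.000927), 3.59-fold, and by 2.26 ± 0.32 in NIC pools (adjusted p = 0.030), 4.80-fold.

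Cldn4 (chr5:134945123-134946934) read 3.69, 1.90, 3.48, 2.87 and 2.99 in KI tumours and 1.55 and 2.68 in NIC pools, against 0.07 and −0.06 in normal glands. KI tumour 2 and the first NIC pool were the lowest of the tumour samples, and all of them lay above the glands. The rise in KI tumours was 2.98 ± 0.49 (limma adjusted p = 0.0031), 7.88-fold. In NIC pools the difference was 2.11 ± 0.44 and missed the threshold (adjusted p = 0.056), with the 2 pools 1.14 apart. It passed in the fit over all 9 RNA samples, which borrows the spread of the KI tumours (adjusted p = 0.028).

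Cldn7, a claudin found along the lateral membrane of many epithelia, had the smallest SD among KI tumours of the claudin probes, 0.15. The gene (chr11:69964779-69967886) read 2.64, 2.92, 3.0, 2.77 and 2.98 in KI tumours and 2.99 and 3.27 in NIC pools, against 0.59 and 0.37 in normal glands. No tumour sample came near the glands, and the gap between the 2 glands was only 0.22. Cldn7 rose by 2.39 ± 0.13 in KI tumours (limma adjusted p = 5.19e-05), 5.22-fold, and by 2.65 ± 0.16 in NIC pools (adjusted p = 0.011), 6.27-fold.

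Cldn8, a claudin best known from the distal kidney tubule and colon, was the exception among the claudins. The gene (chr16:88560826-88563183) read 3.63, 4.06, 1.47, 5.54 and 5.81 in KI tumours and 4.22 and 4.04 in NIC pools, against 3.11 and 4.32 in normal glands. It was thus already above the reference RNA in normal gland, and the groups overlapped. The difference from normal gland was 0.39 ± 1.10 in KI tumours (limma adjusted p = 0.80) and 0.42 ± 0.47 in NIC pools (adjusted p = 0.56). The NIC value was not stable: it was −0.19 without the first gland, 1.02 without the second, and 1.73 with arrays scaled to 1 spread, where it passed (adjusted p = 0.036). KI tumour 3 deviated by −2.63 from the mean of the 5 KI tumours, and KI tumours 4 and 5 stood above every other sample. The SD of 1.74 among KI tumours was larger than that of 99.8% of all probes. Both dye assignments gave the spread: with the sample in Cy5 and in Cy3, KI tumour 3 read 1.38 and 1.57, and KI tumour 5 read 5.72 and 5.91.

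Occludin gave different pictures with its 2 probes. By the brightest, A_51_P486150, Ocln (chr13:100496504-100552718) read 2.82, 3.81, 3.26, 3.33 and 3.77 in KI tumours and 3.65 and 3.34 in NIC pools, against 0.00 and −0.27 in normal glands. All tumour samples lay far above the glands. The rise was 3.53 ± 0.27 in KI tumours (limma adjusted p = 0.000186), 11.6-fold, and 3.62 ± 0.18 in NIC pools (adjusted p = 0.0095), 12.3-fold.

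The other Ocln probe, A_52_P608097, read 0.04, 0.41, 0.25, 0.27 and −0.02 in KI tumours and 0.96 and 0.46 in NIC pools, against 0.69 and 0.61 in normal glands. All KI tumours lay below the glands and the NIC pools spanned them. The difference was −0.46 ± 0.16 in KI tumours (limma adjusted p = 0.054) and 0.06 ± 0.21 in NIC pools (adjusted p = 0.85). Both probes carry the same RefSeq accession in the array's design and both were well above background in both channels on all 10 KI arrays. Which part of the transcript each reads was not analysed here.

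F11r encodes JAM-A, an immunoglobulin-like adhesion protein of the junction that is also made by endothelial cells, platelets and leukocytes. The gene (chr1:171437561-171464593) read 2.10, 2.13, 1.83, 1.71 and 1.85 in KI tumours and 1.44 and 1.50 in NIC pools, against 0.40 and 1.05 in normal glands. The 3 groups formed separate steps, KI tumours above NIC pools and these above the glands. The rise in KI tumours was 1.20 ± 0.19 (limma adjusted p = 0.0023), 2.30-fold. The difference of 0.74 ± 0.26 in NIC pools did not pass (adjusted p = 0.13). It passed with all 9 RNA samples in the fit (adjusted p = 0.035), with unaveraged arrays in a random-block fit (0.040, and 0.026 with dye added), with arrays scaled to 1 spread (0.041) and without the second gland (0.04997). Of 12 leukocyte markers 1 was higher and 4 were lower in KI tumours, and 4 were lower in NIC pools. Of 12 endothelial markers 4 were lower in KI tumours and 8 in NIC pools. The share of all genes called lower was 24.8% in KI tumours and 9.52% in NIC pools, and 17.7% were called higher in KI tumours. The part of either cell type in the F11r values was not tested.

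Tjp1, the gene of the scaffold protein ZO-1, also gave probes that disagreed. The brightest, A_51_P390739, read 0.76, 1.03, 0.46, 0.98 and 1.10 in KI tumours and 0.08 and −0.33 in NIC pools, against 0.51 and −1.11 in normal glands. KI tumour 3 lay below the first gland, so the groups overlapped. The rise of 1.17 ± 0.40 in KI tumours just passed (limma adjusted p = 0.049), and in NIC pools the difference was 0.18 ± 0.63 (adjusted p = 0.86). The low value of the second gland came from 1 array: it read −2.24 with the sample in Cy3 and 0.03 in Cy5. Without that gland the KI difference was 0.36 (adjusted p = 0.35), and without any 1 of KI tumours 1 to 5 the adjusted p was between 0.052 and 0.090.

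Tjp1 probe A_52_P60338 read −0.11, −0.05, −0.04, −0.03 and −0.03 in KI tumours and −0.15 and −0.05 in NIC pools, against 0.94 and 0.70 in normal glands. All tumours stood at the level of the reference RNA and below both glands. This probe fell by 0.87 ± 0.08 in KI tumours (limma adjusted p = 0.00029) and by 0.92 ± 0.13 in NIC pools (adjusted p = 0.031). Its Cy5 and Cy3 arrays differed by −1.06 to −0.21 in every RNA sample, a dye effect that the mean over the pair balances. No direction of Tjp1 as a gene is given, since its probes (gene at chr7:65296165-65527850) moved in opposite directions in KI tumours.

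Crb3, a small apical membrane protein, rose with the claudins. The gene (chr17:57062201-57065918) read 2.03, 2.42, 3.10, 2.64 and 2.93 in KI tumours and 2.88 and 3.21 in NIC pools, against −0.42 and 0.64 in normal glands. The lowest tumour stood clear of the higher gland, although the glands differed by 1.06. Crb3 rose by 2.51 ± 0.36 in KI tumours (limma adjusted p = 0.0016), 5.71-fold, and by 2.93 ± 0.43 in NIC pools (adjusted p = 0.031), 7.65-fold.

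No member was called between KI tumours and NIC pools. By their brightest probes the difference of KI tumours from NIC pools was −0.42 ± 0.22 for Cldn3, −0.42 ± 0.36 for Crb3, −0.26 ± 0.13 for Cldn7, −0.26 ± 0.25 for Cldn1, −0.09 ± 0.27 for Ocln and −0.02 ± 1.10 for Cldn8. The second Cldn1 probe, A_51_P481958, differed by −1.02 ± 0.38. It was positive for Tjp1 (0.99 ± 0.40), Cldn4 (0.87 ± 0.49) and F11r (0.46 ± 0.19). None of the 12 probes passed in limma, and 4 had an unadjusted p under 0.05, as had 23.1% of all probes. A missed threshold does not show equal levels. The 2 samples of NIC are pools, so their gap understates the spread between single NIC tumours. Of all probes 16.1% lay wholly above and 15.8% wholly below, and of the 12 members' probes 2 lay above (F11r, Tjp1 A_51_P390739) and 3 below (Cldn3, Cldn1 A_51_P481958, Ocln A_52_P608097). With KI values recomputed by loess from the scanner intensities, both Cldn1 and both Ocln probes were called lower in KI tumours than in NIC pools. The differences were −1.98 and −1.08 for Cldn1, −1.16 for Ocln A_51_P486150 and −0.58 for A_52_P608097 (limma adjusted p between 0.0071 and 0.045). NIC values stayed as deposited in that fit, so any effect of the differing processing cannot be told apart from the group. With Feature Extraction log ratios for KI tumours, only Cldn1 A_51_P481958 was called (−1.42, limma adjusted p = 0.037).

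The order of the 5 KI tumours was shared by some members and not by others. KI tumour 1 was lowest for 7 of the 12 probes, among them both Cldn1 probes, Cldn3, Cldn7, Crb3 and the brightest Ocln probe, and was highest for Cldn4. KI tumour 3 was highest for 5 probes, both Cldn1 probes, Cldn3, Cldn7 and Crb3, and lowest for Cldn8 and the brightest Tjp1 probe. Cldn4 spread widely, with an SD of 0.69, and KI tumour 2 deviated by −1.08 from the group mean. Tjp1 A_52_P60338 had an SD of 0.03, above that of only 5.50% of probes. The median level of 13 basal and myoepithelial markers was 0.11 and 0.16 in KI tumours 1 and 2 and 1.76 to 2.01 in KI tumours 3, 4 and 5. The markers did not all split this way. Krt5 read 0.19 and 0.16 in KI tumours 1 and 2 and 2.06, 2.49 and 2.07 in the others. Krt14 read 2.99 and 2.41 against 2.86, 2.48 and 2.71. Lamb3 ran the other way, with 2.91 and 2.88 against 2.01, 2.32 and 2.42. The part of these marker differences in the spread of the members was not tested.

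**Figure D2:**
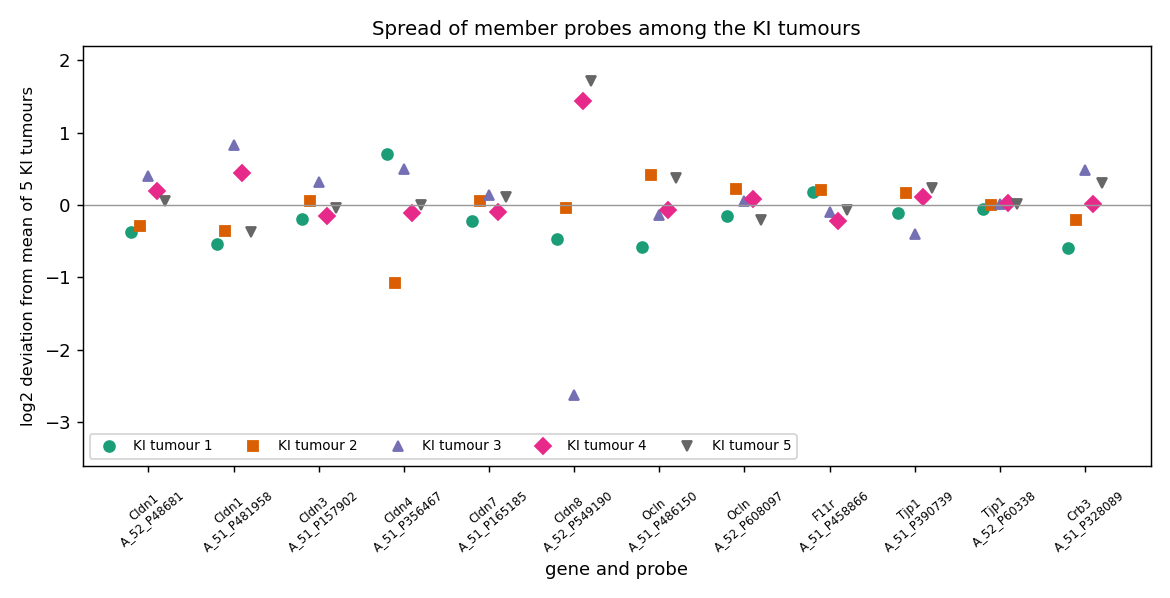
Deviation of each KI tumour from the mean of the 5 KI tumours, in log2 units (vertical axis), for the 12 probes (horizontal axis), with a symbol per tumour. Cldn8 spreads furthest, with KI tumour 3 at −2.63 and KI tumour 5 at 1.71, and Cldn4 comes next.

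The rise of the members was then set against that of epithelial genes in general. Of 8 epithelial genes, Epcam, Krt8, Krt18, Krt19, Cdh1, Spint1, Spint2 and St14, 6 rose in KI tumours and 6 in NIC pools. By comparison, 17.7% and 8.47% of all genes were called higher. Krt19 and St14 were called in neither. Krt19 differed by 0.95 in KI tumours and −2.24 in NIC pools. St14 differed by −0.14 and 0.02, and its other probe by 2.61 and 2.57. Epcam, the cell surface adhesion gene, rose by 3.37 ± 0.33 in KI tumours and 3.87 ± 0.54 in NIC pools, and the E-cadherin gene Cdh1 by 0.56 ± 0.12 and 0.52 ± 0.10. The median level of the 8 was 1.78 to 2.52 in KI tumours and 2.17 to 2.42 in NIC pools, against 0.11 to 0.19 in normal glands. Centring each array on this median lowered the median difference of all probes to −2.04 in KI tumours and −2.16 in NIC pools, so the values that follow are relative to these 8 genes only.

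On that scale the differences of tumours from normal gland varied in direction among the members. Of all 41174 probes, limma called 37578 lower and 222 higher in KI tumours on it, and 38030 lower and 554 higher in NIC pools. A lower call on that scale thus does not by itself set a member apart. The brightest Cldn1 probe stayed higher, by 1.26 in KI tumours (limma adjusted p = 0.0012) and 1.43 in NIC pools (adjusted p = 8.72e-05), and so did the brightest Ocln probe, by 1.48 in both (adjusted p = 0.00017 and 2.79e-05). The other Ocln probe, A_52_P608097, was lower by that measure, at −2.51 in KI tumours (adjusted p = 1.06e-06) and −2.08 in NIC pools (adjusted p = 4.61e-07). The centred difference from normal gland was −0.21 in KI tumours and 0.12 in NIC pools for Cldn3, and 0.33 and 0.51 for Cldn7. None of these passed. Cldn4 stood at 0.93 in KI tumours, just short of the threshold (adjusted p = 0.055), and at −0.03 in NIC pools. Crb3 stood at 0.46 in KI tumours, which did not pass, and at 0.80 in NIC pools (adjusted p = 0.031). F11r stood at −0.85 in KI tumours (limma adjusted p = 0.0087) and −1.40 in NIC pools (adjusted p = 0.00016). Its difference from normal gland was thus smaller than that of the epithelial median. Both Tjp1 probes were also negative on that scale, at −0.89 for A_51_P390739 and −2.93 for A_52_P60338 in KI tumours. Cldn8 stood at −1.66 in KI tumours (adjusted p = 0.076) and −1.72 in NIC pools (adjusted p = 7.53e-05).

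**Figure D3:**
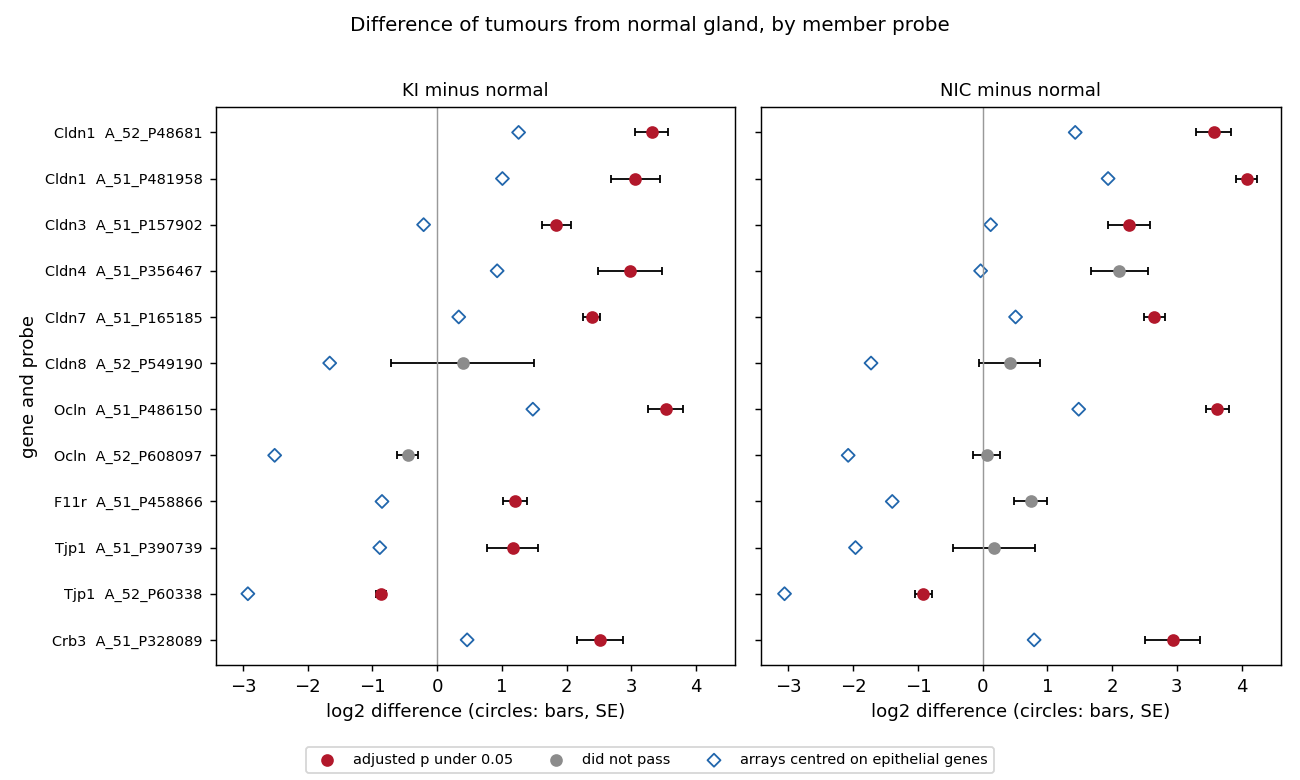
Log2 difference from normal gland (horizontal axis) of the 12 probes (vertical axis) in KI tumours, left, and NIC pools, right. Circles with SE bars are the differences, red where the adjusted p was under 0.05, and open diamonds are the differences after each array was centred on 8 epithelial genes. The diamonds stay right of 0 in both panels for Cldn1, Cldn7, Crb3 and Ocln A_51_P486150.

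Of 18 other claudins and claudin-like genes measured, 4 rose and 7 fell in KI tumours, where 17.7% of all genes were called higher and 24.8% lower. In NIC pools 4 rose and 3 fell, where 8.47% of all genes were called higher and 9.52% lower. Cldn2, Cldn9, Cldn23 and Cldnd1 were higher in both, Cldn9 being named after its values were seen. The median log2 difference of the 18 was −0.10 in KI tumours and −0.07 in NIC pools. Cldn23 was 5.43-fold higher in KI tumours and 2.16-fold higher in NIC pools than in normal gland, although it stood at −1.03 in NIC pools after centring on the 8 epithelial genes. Its NIC call was lost with all 9 RNA samples in the fit (adjusted p = 0.11), in the random-block fits, with either dye alone and without any 1 sample (adjusted p between 0.056 and 0.22). Cldn5, the main claudin of endothelium, fell by 1.48 ± 0.26 in KI tumours (limma adjusted p = 0.0041) and by 1.55 ± 0.20 in NIC pools (adjusted p = 0.026). With arrays scaled to 1 spread the NIC call of Cldn5 was lost (−0.63, limma adjusted p = 0.065). Its KI difference ranged from −3.53 to −0.44 over 20 alternatives, and the call was lost in 1 of them. Cldn22 fell by 1.32 ± 0.19 in KI tumours (adjusted p = 0.0016).

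Cldn2, which forms a cation-permeable pore, differed between the tumour kinds. It read 0.39, 1.82, 0.93, 2.19 and 2.06 in KI tumours and 3.85 and 3.83 in NIC pools, against −0.07 and −0.02 in normal glands. All KI tumours lay between the glands and the NIC pools. It was 1.53 ± 0.48 higher in KI tumours (limma adjusted p = 0.037) and 3.89 ± 0.09 higher in NIC pools (adjusted p = 0.0094) than in normal gland. It was lower in KI tumours than in NIC pools (log2 difference −2.36 ± 0.48, adjusted p = 0.032). After epithelial centring its difference from normal gland was −0.52 in KI tumours and 1.75 in NIC pools. It was the only 1 of the 18 that passed between KI and NIC. Neither of its KI calls held under every alternative processing. The difference of KI tumours ranged from −2.87 to −1.91 against NIC pools and from −0.52 to 1.80 against normal gland.

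Of 34 other genes of the junction and of epithelial polarity, 19 rose and 2 fell in KI tumours by their brightest probes. In NIC pools 14 rose and 4 fell. The shares over all genes were 17.7% higher and 24.8% lower in KI tumours, and 8.47% and 9.52% in NIC pools. Among the 34, Ildr1, a protein of tricellular junctions, rose 5.40-fold in KI tumours and 10.0-fold in NIC pools. Its other probe rose less, with log2 differences of 0.82 and 1.46. The polarity gene Llgl2 rose 5.15-fold in KI tumours, and Igsf5 and the occludin relative Marveld3 rose 7.24-fold and 5.54-fold in NIC pools. Jam2 fell by 2.37 ± 0.54 in KI tumours (limma adjusted p = 0.011) and Jam3 by 2.63 ± 0.37 in NIC pools (adjusted p = 0.030), where its other probe differed by −0.17. Both are relatives of F11r that endothelial and other cells express.

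Between KI tumours and NIC pools 4 of these 34 were higher and 2 lower, where 3.09% of all genes were higher and 3.43% lower. Pard6b, a polarity adaptor, read 1.40, 0.52, 1.77, 0.71 and 1.26 in KI tumours and −0.77 and −0.60 in NIC pools, against −1.77 and −1.65 in normal glands. The 3 groups did not overlap. It was 1.82 ± 0.32 higher in KI tumours than in NIC pools (limma adjusted p = 0.021) by its brightest probe, and its other 2 probes differed by 0.36 and 0.48. Cgnl1, the gene of paracingulin, was lower in KI tumours than in NIC pools by its brightest probe (log2 difference −1.43 ± 0.27, limma adjusted p = 0.025). Its other probes differed by −2.22 to −0.19. Magi2 and Crb2 were higher by 0.82 ± 0.13 and 0.73 ± 0.11. The calls of Pard6b, Cgnl1, Magi2 and Crb2 did not hold under every alternative processing. Their differences ranged from 1.66 to 1.97 for Pard6b, −1.59 to −1.11 for Cgnl1, 0.58 to 1.06 for Magi2 and 0.22 to 1.16 for Crb2.

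**Figure D4:**
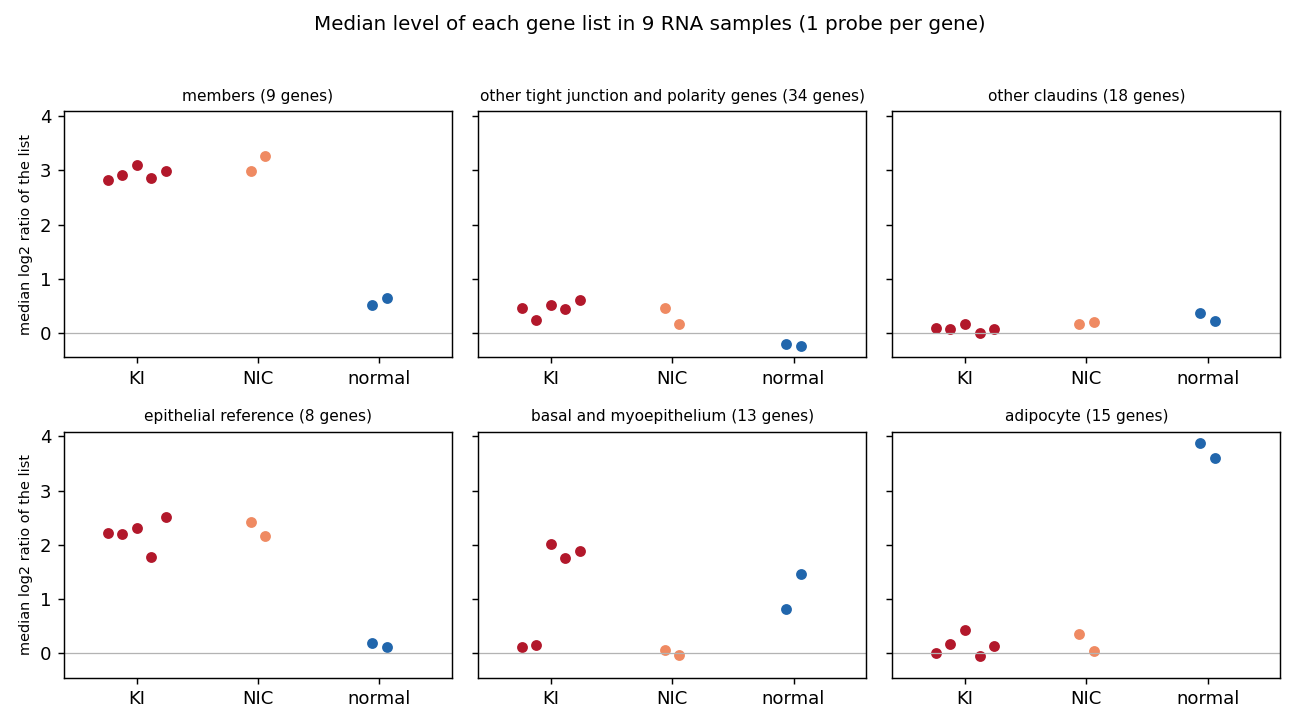
Median log2 ratio of RNA sample over reference (vertical axis) of 6 gene lists in KI tumours, NIC pools and normal glands, with a point per RNA sample and a single probe per gene. The 9 members lie at 2.82 to 3.10 in KI tumours and 2.99 to 3.27 in NIC pools, against 0.51 to 0.64 in normal glands, while the adipocyte list runs the other way.

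The genes whose pattern over the 9 RNA samples lay nearest to each member were looked up among 19091 named genes, by the root mean square difference of levels after each gene's own mean was removed. Nearest to Cldn1 were Fbxw7 (0.24) and Epcam (0.24), and nearest to Cldn3 were Ceacam1 (0.10) and Camsap3 (0.16). Micall2 (0.33) and Cpe (0.35) lay nearest to Cldn4, and Ap1m2 (0.15) and Tceal9 (0.17) to Cldn7. Ocln lay nearest to Mfsd6 (0.25) and Foxc1 (0.26), F11r to Uggt1 (0.12) and Stk11ip (0.14), and Crb3 to Atp2c2 (0.21) and Sapcd2 (0.24). The brightest Tjp1 probe lay nearest to Mtap and Tmem33 (0.17 each). Cldn8 had no close match: the nearest, Tfcp2l1 and Reep1, stood at 0.62 and 0.78, where Cldn8 itself had an SD of 1.28 over the 9 samples. These distances describe 9 samples in 3 groups and carry no test.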

How the data were processed

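Normal and NIC values lie in a single deposited table and KI values in another, as log2 ratios of sample over reference. Direction and scale of the KI table were checked against the KI scanner files (r = 0.982 to 0.988 after loess). For the other table, and for its spot layout, they were taken by analogy. RMA appears in the submitters' processing notes without a role, and further steps are not stated in the sources used here. Spot intensities and log10 ratios of the 10 KI arrays were written by Agilent Feature Extraction, per the file headers. Where protocol text and label field of a KI array named different dyes, the label field was taken.

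Here the dye pair was averaged per RNA sample, 2256 control spots were left out, and all 41174 probes were fitted with limma 3.58.1 in R 4.3.3 (lmFit, eBayes, two-sided, Benjamini-Hochberg, called at adjusted p under 0.05). NIC against normal used 4 RNA samples and both KI comparisons all 9. No filter on dim probes was set. The 12 member probes were above background in both channels on all 10 KI arrays and none was saturated. The number of arrays limits the precision. Probes were named by accession or symbol through a RefSeq table of GRCm38.p6. The scripts were tested on simulated data. Alternatives covered scaling, centring, dyes, KI scanner values and leaving out samples. Every member probe is named, and of other junction genes the 4 called with the largest difference per comparison. Members, lists and tests were chosen with earlier results of these data known. Protein and probe sequences were not used here.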

Additional observations from a re-analysis of the deposited data

How the results depend on the processing

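With a single probe per gene, quantile normalization, scaling to 1 spread or KI values from the scanner files, the rise of Cldn1, Cldn3, Cldn7, Ocln A_51_P486150, F11r and Crb3 in KI tumours kept its direction and its call. Of the 12 probes, 7 were called in NIC against normal. It was 9 probes with all 9 RNA samples in the fit, in the random-block fits, with arrays scaled to 1 spread or after epithelial centring. The count was 3 with Cy3-labelled samples only and lay between 0 and 7 when a sample was left out. It was 0 without either NIC pool, where limma called 0 of all probes with 9364 and 10592 at an unadjusted p under 0.05. In KI against normal 10 were called, and between 9 and 10 when a KI tumour was left out. The number was 7 after epithelial centring, 9 with Cy3-labelled samples only and 11 in the random-block fit without dye. Between KI and NIC 0 were called. That count was 4 with KI values from loess of the scanner files, 2 with Cy5-labelled samples only, 2 with unaveraged arrays and RNA sample as random block, also with dye as covariate (chosen after seeing the data), and 1 with arrays scaled to 1 spread, with only these 2 groups in the fit or with Feature Extraction log ratios. It stayed at 0 in every fit that left out a sample. Over all probes, NIC against normal called 7594, and 15060 with all 9 RNA samples, 15384 with the random block, 14341 with dye added, 2905 with Cy3 only, and 5051 and 3542 without each normal gland. KI against normal called 17391, and 11250 after scaling. KI against NIC called 2878 (1245 higher, 1633 lower), 1561 after quantile normalization (473 higher, 1088 lower), 1368 after epithelial centring (752 higher, 616 lower), 6073 and 5557 with the random block without and with dye, 6028 with loess values, 1471 without KI tumour 5, and 821 and 1257 without NIC pools 1 and 2. Epithelial centring called 37800 probes in KI against normal (222 higher, 37578 lower) and 38584 in NIC against normal (554 higher, 38030 lower).

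Centring on epithelial genes turned the sign in NIC against normal for Cldn8 (−1.72), Ocln A_52_P608097 (−2.08), Tjp1 A_51_P390739 (−1.96), F11r (−1.40), Cldnd1 (−0.78) and Cldn23 (−1.03). It did so in KI against normal for Cldn3 (−0.21), Tjp1 A_51_P390739 (−0.89), F11r (−0.85) and Cldn2 (−0.52). By construction it gives differences relative to the median of 8 genes, of which 6 were called higher in each comparison with normal gland. The cause of the other changes was not tested. No paired analysis was possible because the groups share no replicate numbers in the labels.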
